A study of Homo sapiens with 24 samples.

Results

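The genes described are the replacement histone genes H3-3A, H3-3B, H2AZ1, H2AZ2, H2AX and MACROH2A1, and the linker histone gene H1-10. Members were chosen by gene symbol, through the RefSeq transcripts to which the peaks were assigned. All 7 genes had at least 1 called peak of N1-methyladenosine (m1A), out of 9319 genes with a peak in any list. They carried 82 of the 61237 deposited peaks, on 14 transcripts.

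The samples were 24 libraries of polyadenylated RNA in 12 groups of 2, all from HEK293T, a human embryonic kidney cell line. Wild-type cells (WT) and an ALKBH3 Knockout line (KO), both without treatment, each gave input libraries, libraries pulled down with an anti-m1A antibody (IP), and IP libraries that were then treated with a demethylase. A further series of wild-type HEK293T gave input and IP libraries from cells without treatment (UT), from cells exposed to H2O2 at 50 µM over 30 min (H2O2), and from cells held for 16 h in serum-free medium (Starve). The sources used here do not say whether the KO line is 1 clone. The descriptions of the UT libraries name the Starve lists, so the UT lists were assigned by their names, and every comparison with UT rests on that assignment. The labels do not say that the 2 replicates of a group were separate cultures, so agreement between them may be technical.

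Most histone genes are transcribed in S phase and their mRNAs end in a stem-loop without a poly(A) tail. Most replacement histones are made throughout the cell cycle from polyadenylated mRNAs, and they take the place of the canonical histones at particular sites in chromatin. N1-methyladenosine carries a methyl group on the base-pairing face of adenine, and is often found near the 5′ end of mRNAs. ALKBH3 is a demethylase that can remove it.

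The study measured mRNA, so the sequence around the transcription start is shown for the members, with the 6 letters GTTCNA in capitals. The methylated adenosine in the T loop of tRNAs lies within letters of this form. N stands for any base here, and a match does not show a T loop. The sequences are 30-base runs from the RefSeq promoter table (GRCh38.p14), read 5′ to 3′ on the gene's strand. The 250 bases before and 50 bases after each annotated start were searched on both strands.
H1-10, chr3:129316244-129316273, minus strand: cacgcccagcgaGTTCCAgaggcgccagtg
H2AX, chr11:119095423-119095452, minus strand: cggcgggcgtctGTTCTAgtgtttgagccg
H2AZ2, chr7:44848121-44848150, minus strand: acagccgctgggGTTCGAaccagcaagaca
H3-3A, chr1:226062363-226062392, plus strand: cgggcttcggggGTTCGAcgccgtgcgcac
H3-3B, chr17:75779826-75779855, minus strand: atgcaaataaggGTTCTAtgacgcagagac
MACROH2A1, chr5:135399217-135399246, minus strand: ccgcgaggactgGTTCCAgttcactcggca

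On the sense strand the letters stood in 6 of the 11 member windows (54.5%), against 14.1% of all 35116 windows, and on the antisense strand in 2 (18.2%), against 14.2%. Those 6 windows belong to 6 of the 7 genes, the exception being H2AZ1, against 4582 of all 27305 genes. H3-3A and MACROH2A1 had more than 1 window, and in each only 1 held the letters. The motifs of H1-10 and H2AX begin after the annotated start, both at base 26 of the transcript. The peak summits of these genes lay elsewhere, at bases 251 to 261 in H1-10 and 789 to 799 in H2AX. The letters begin before the annotated start at base -51 in H2AZ2, -72 in H3-3A and -64 in H3-3B. In MACROH2A1 they begin at base -3 and run across the start. These positions count from the start of the window that holds the letters. In H3-3A and MACROH2A1 the letters also lie downstream of another annotated start of the gene. Within the first 50 transcribed bases the letters stood in 18.2% of member windows and 2.33% of all windows. A match in these windows is a description of the letters, and a start in this annotation can differ from that of the transcripts in the peak lists.

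The number of lists that held a peak differed widely between the genes. H2AZ2 was called in 9 of 10 lists, H3-3B and H1-10 in 8, H3-3A in 5, MACROH2A1 in 4, and H2AX and H2AZ1 in 2 each. Among all genes with a peak, 24.4% were in 5 or more lists and 5.48% in 8 or more, and 4 and 3 of the 7 members were. No member was in all 10 lists, where 1.14% of genes were. The lists ranged from 2175 peaks in the first WT list to 11362 in the first Starve list, so a missing call in a short list and in a long one do not carry the same weight.

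**Figure D1:**
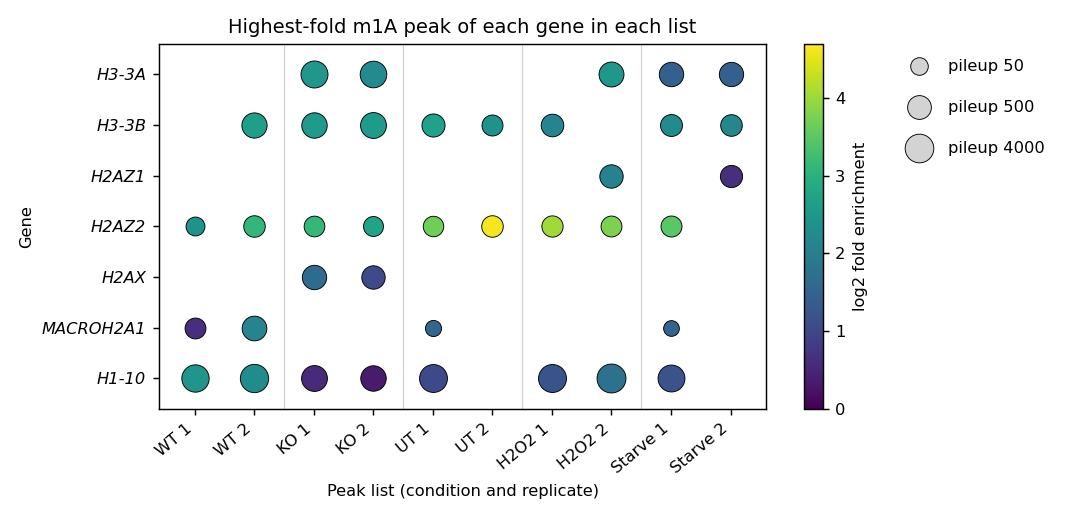
Highest-fold m1A peak of each gene (rows) in each of the 10 peak lists (columns). Colour gives the log2 of the fold enrichment and circle area grows with the pileup, and an empty cell means that no peak was called. H2AZ2 is empty in 1 list and H2AX is filled in the 2 KO lists alone.

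The peaks lay near the 5′ end. Of the 82 member peaks, 71 (86.6%) had their summit within 300 nt of the transcript start, with a median summit at nt 135, against 41.1% and a median at nt 496 over all 61237 peaks. H2AZ2 gave 43 of the 82 peaks and 38 of the 71, most of them 1 signal repeated over isoforms, so the share and the median rest largely on that gene. H2AX alone had no peak near the start, and both of its peaks lay far downstream, at nt 755 to 883 and nt 776 to 878. The map of called peaks shows the same positions recurring from list to list in H3-3A, H3-3B, H2AZ2 and H1-10.

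**Figure D2:**
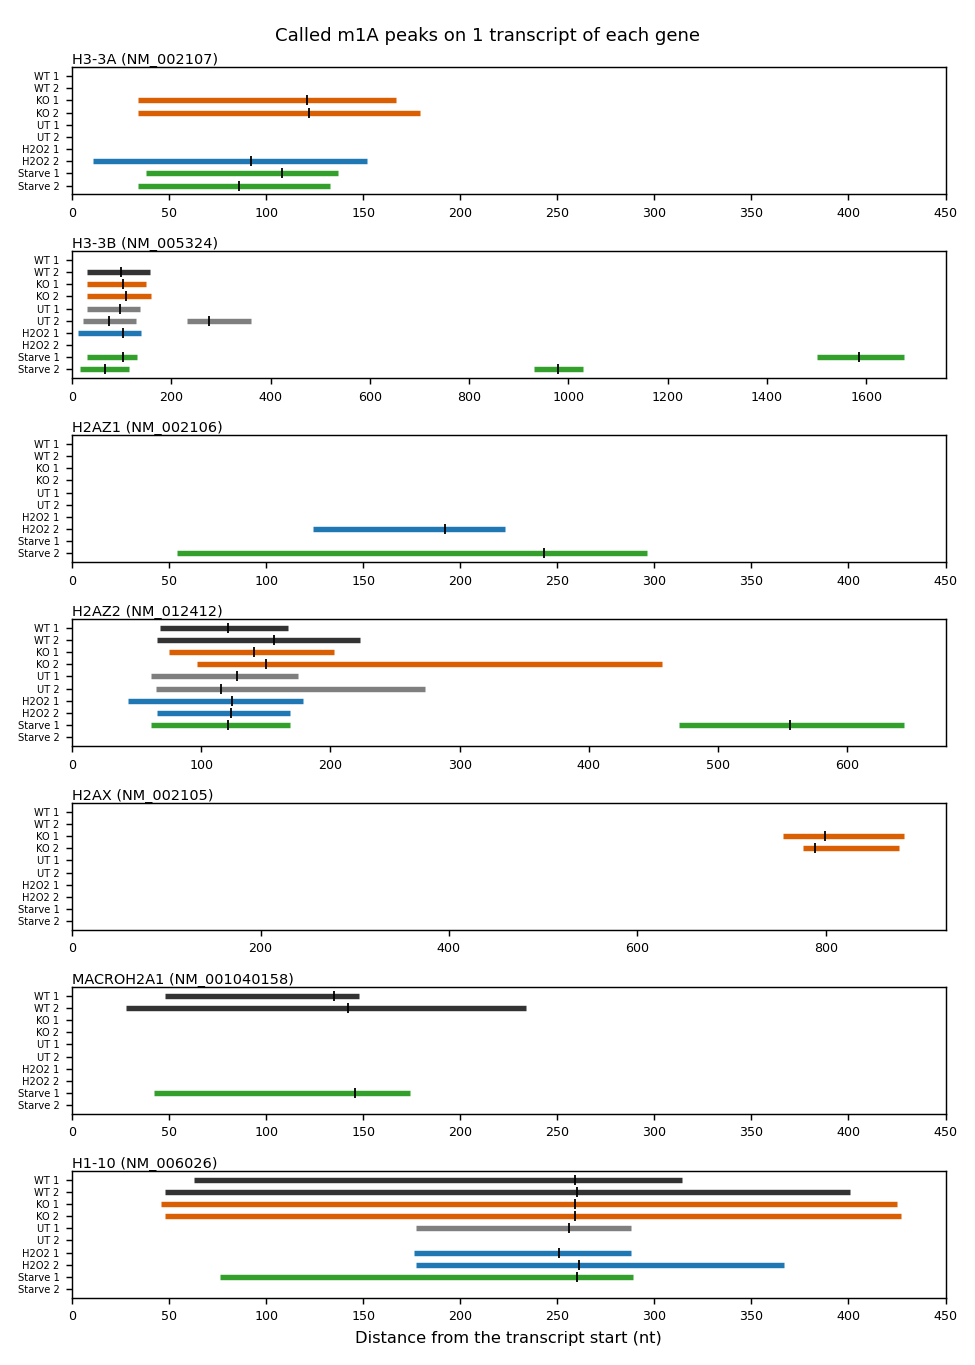
Called m1A peaks on 1 transcript of each gene, by distance from the transcript start in nt. Each bar is a peak in 1 list, coloured by condition, and the tick is its summit. The H2AX peaks lie beyond nt 750, and those of the other genes mostly within the first 300 nt.

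H3-3A and H3-3B encode the same H3.3 protein from different mRNAs. The coverage at a summit (pileup) is given as the authors' value for reads piled up there, and fold is their enrichment of that pileup over local background. In H3-3A (NM_002107) the pileup was 1924 and 1634 in the KO lists, 811 in the second H2O2 list, and 647 and 617 in the Starve lists, with folds of 5.62, 4.72, 5.62, 2.67 and 2.66. The WT and UT lists held no H3-3A peak. All 5 summits fell between nt 86 and nt 122.

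H3-3B (NM_005324) had its first peak in 8 lists, with summits from nt 66 to nt 109. The pileup there was 908 in the second WT list, 982 and 1187 in KO, 385 and 183 in UT, 317 in the first H2O2 list, and 240 and 187 in Starve. The folds were 6.21 in WT, 5.89 and 6.0 in KO, 6.57 and 4.15 in UT, 4.38 in H2O2, and 4.76 and 3.42 in Starve. Single-list peaks followed further along, with summits at nt 276 in the second UT list, nt 1586 in the first Starve list and nt 979 in the second. How the counting treated reads shared with other copies of these genes was not examined.

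H2AZ1 and H2AZ2 encode the 2 isoforms of H2A.Z, the variant found at promoters. H2AZ2 was seen on 5 transcripts with 43 peaks, most of them the same signal repeated over isoforms. On NM_201517 the folds were 5.27 and 8.49 in WT, 8.73 and 6.61 in KO, 12.60 and 24.87 in UT, 16.41 and 13.65 in H2O2, and 11.19 in the first Starve list. The ranges in WT and KO overlap. The UT and H2O2 ranges overlap too, and the second Starve list, with no H2AZ2 peak, is the 1 gap. The pileups were modest, 79 and 208 in WT, 153 and 115 in KO, 138 and 208 in UT, 188 and 163 in H2O2, and 169 in Starve. The first Starve list had a further peak at nt 356 to 530 (fold 5.55, pileup 54).

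H2AZ1 (NM_002106) was called once in H2O2 and once in Starve. The second H2O2 list had it at nt 124 to 223 with a pileup of 429 and a fold of 4.20, and the second Starve list at nt 54 to 296 with a pileup of 271 and a fold of 1.55. Neither condition held it in both lists.

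H2AX encodes the variant that is phosphorylated at DNA breaks. Its peak (NM_002105) had a pileup of 636 and 433 in the KO lists, with folds of 3.07 and 2.09, and no other list held one. The local background implied by fold and pileup was 206.26 and 206.77.

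MACROH2A1 encodes a histone with a large extra domain that is enriched in silent chromatin. Of its transcripts, 3 had a peak near the start in both WT lists and the first Starve list. On NM_138610 the pileup was 163 and 757 in WT and 172 in Starve, and the fold 1.55, 4.24 and 1.33. The WT lists thus differed from each other by more than the first WT list differed from Starve. The transcript NM_004893 had peaks at other positions in the first Starve list (pileup 27) and the first UT list (pileup 31).

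H1-10 encodes H1.X, a linker histone that binds DNA between nucleosomes. Its peak (NM_006026) was deep, with pileups of 2239 and 3398 in WT, 1181 and 1001 in KO, 2853 in the first UT list, 2915 and 4475 in H2O2 and 1840 in the first Starve list. In both KO lists H3-3A was deeper, as was H3-3B in the second, and in the other 6 lists that held H1-10 no member was. All 8 summits fell between nt 251 and nt 261. Within its list the pileup ranked at the 96.3rd percentile or above, with a median of 99.5. The fold ranked from the 0.114th percentile to the 78.9th, with a median of 8.68.

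In H1-10 the KO peaks stood apart from the WT peaks. The fold was 5.46 and 4.83 in WT and 1.48 and 1.26 in KO, so the groups did not overlap. Set against the median of its own list, the pileup was 33.42 and 30.07 times the median in WT and 9.92 and 9.02 times in KO. The background, set against its list's median in the same way, was 28.82 and 27.32 times in WT and 27.27 and 28.47 times in KO. In the first UT list the pileup was 50.95 times the median and the background 138.74 times. On that relative scale the KO and WT values parted in pileup and overlapped in background. Unscaled, the background was 409.3 and 702.07 in WT and 796.34 and 791.55 in KO, so both KO values lay above both WT values. This pattern was picked out after its values were seen. Such an order was common: of the 488 regions held by all 4 lists, 36.7% had both KO folds below both WT folds and 52.9% had both relative pileups below, with 20.7% and 16% the other way. Of the 5 member regions among the 488, H1-10 alone lay below in KO on either measure and none lay above. The others were all on H2AZ2 transcripts, which repeat much of 1 signal, so the 5 regions stand for 2 genes. With 2 lists against 2, an exact permutation test cannot give a p under 0.333.

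**Figure D3:**
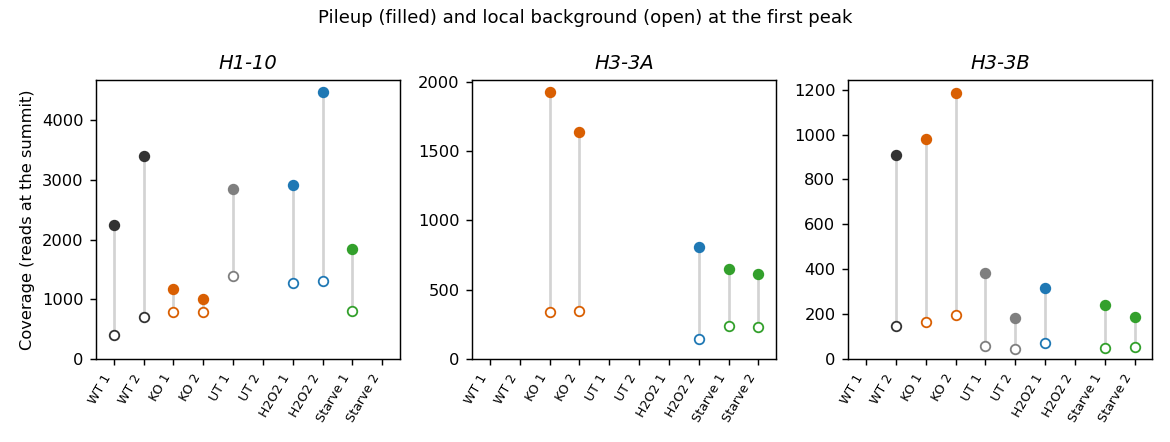
Pileup (filled) and implied local background (open) in reads at the summit of the first peak of H1-10, H3-3A and H3-3B, by list, with a separate axis for each gene. The 2 KO points of H1-10 lie at 1181 and 1001, below both WT points at 2239 and 3398, and an empty column means that no peak was called.

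The study compared KO with WT to find sites that depend on ALKBH3. A region was the union of overlapping peaks, and it was assigned to 1 group alone when its 2 lists both had a peak there and the 2 lists of the compared group had none. Of the 12 member regions, 2 were held by KO alone, those of H2AX and H3-3A, against 16.1% of all 7322 regions. The 3 start-proximal regions of MACROH2A1, which repeat 1 signal on 3 transcripts, were held by WT alone, against 4.04% of all regions. By gene, 2 of 6 members had a KO-only region, against 18.9% of 3903 genes, and 1 of 6 a WT-only region, against 5.2%. H2AZ2 and H1-10 were held by all 4 lists, and H3-3B by all but the first WT list. The share of KO-only regions among members was thus near that over all regions.

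The treated cells were compared with UT to find sites that stress induces. No member region of 11 was held by H2O2 alone, against 1.16% of 23475 regions, and none by UT alone, against 2.85%. By gene the shares over all 7517 genes were 2.33% and 5.49%, and 0 of 6 members were called in either direction. In the comparison of Starve with UT, 1 of 21 member regions, the first peak of H3-3A, was held by Starve alone, against 2.39% of 30272 regions, and none by UT alone, against 1.94%. By gene this was 1 of 6 against 5.34% of 8465 genes, and 0 of 6 against 4.06%. The H3-3A peak is also the one held by KO alone against WT. It was called in 1 of 2 H2O2 lists. H2O2 and Starve share the UT lists.

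UT and WT are both wild-type cells without treatment by their labels. None of 11 member regions was held by UT alone, against 4.02% of 18101 regions, and 3 by WT alone, against 1.59%. These 3 were again the start-proximal regions of MACROH2A1. The first UT list held a MACROH2A1 peak elsewhere, on NM_004893, and the KO lists held none.

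The demethylase was applied to RNA that had already been pulled down. Coverage after that treatment was deposited beside that of the IP in 10-nt windows that advance by 5 nt, for each WT and KO replicate. The treated coverage in the 2 tables of a genotype turned out to be 1 profile wherever it was checked. Its ratio between the tables was constant within 0.1% in 356 of 356 WT regions and 777 of 777 KO regions. For the IP coverage this held in 0 of 355 and 0 of 778. The check took regions with at least 5 windows at identical positions in both tables. H1-10 in WT, H2AX in KO and H2AZ2 in both genotypes had no such windows, so 1 profile was assumed there. The treated profile of each genotype was therefore counted as 1 sample, beside 2 IP samples, and the lone treated sample was assumed to vary as the IP samples do. Both kinds of coverage were scaled within each region, so the windows show the shape of a region and not its level.

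H1-10 showed the clearest shape. In WT the IP coverage stood as a single hill over nt 200 to 290, with its highest windows at nt 263 (7.32) and nt 261 (6.39) in the 2 replicates. In KO the IP coverage was flatter, with maxima of 4.09 and 3.76. Over nt 20 to 310, the span common to the 4 tables, windows within 50 nt of the summit held 61.6% and 58.5% of the IP coverage in WT and 43.6% and 41.0% in KO. The treated profile held 73.0% and 74.8% there in WT, the same profile measured on either table's positions and summit, and 59.3% in KO. In each of the 4 tables the treated coverage was thus more concentrated at the summit than the IP coverage, and in KO both were less so than in WT.

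**Figure D4:**
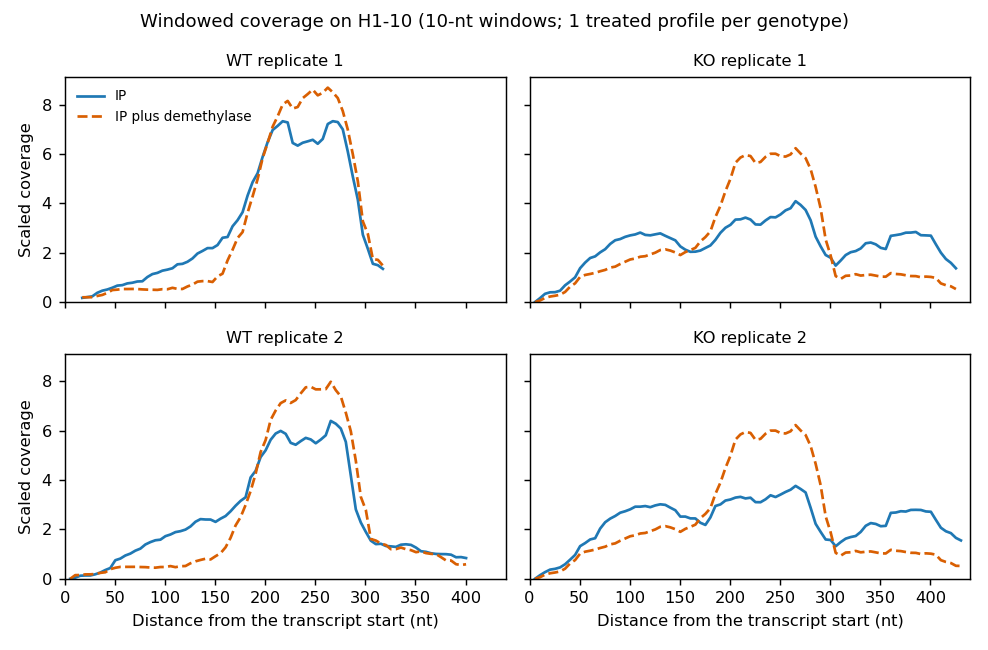
Scaled coverage of H1-10 in 10-nt windows by distance from the transcript start, in IP (solid) and IP plus demethylase (dashed), 1 panel per table. The dashed curve of the 2 panels of a genotype is taken as 1 profile apart from its scale. The IP maxima are 7.32 and 6.39 in WT and 4.09 and 3.76 in KO. They also depend on the width of the scaled region, which is larger in KO.

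The test of treated against IP coverage took only windows at identical positions in both tables of a genotype. With 1 treated and 2 IP samples per genotype the fit could call little, so a window without a call is not shown to be unchanged. In KO the windows at identical positions lay on H1-10, H3-3A and H3-3B, so H2AX and H2AZ2 were not tested. No tested member window passed (limma's moderated test on log2 of coverage plus 1, Benjamini-Hochberg adjusted). In KO this was 0 of 130 member windows, and 0% of all 24707 windows were called in either direction. At an unadjusted p below 0.05 there were 53 of the 130, of which 52 were on H1-10 and 1 on H3-3A, and 18.3% of all windows. On H1-10 the window at nt 281 had treated coverage of 4.66 and IP coverage of 2.65 and 2.23 (log2 difference 0.72, SE 0.14, adjusted p = 0.217). The window at nt 386 had 1.004 against 2.71 and 2.79 (log2 difference -0.90, SE 0.10, adjusted p = 0.199). H3-3B had no window below an unadjusted p of 0.05 among 26.

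In WT the only members with windows at identical positions in both tables were 3 transcripts of MACROH2A1. None of their 73 windows passed (3 unadjusted, smallest adjusted p = 0.124), nor did any of the 11289 windows tested, 0% in either direction. At an unadjusted p below 0.05 there were 22.3% of them.

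No member window stood at the same position in all 4 tables. The treated over IP ratio was therefore compared between KO and WT at positions interpolated every 10 nt, an approach chosen after the tables were seen. Of 70 member positions, 1 was higher in KO, against 3.82% of 5319 positions, and none was lower, against 1.54%. It lay at nt 80 of H2AZ2 (NM_012412), where treated coverage was 2.03 in WT against IP values of 4.25 and 4.27, and 3.75 in KO against 3.09 and 2.94. The difference in log2 ratio was 1.04 (SE 0.11, adjusted p = 0.0349 by limma). With the replicate number as a block, no position was called (smallest adjusted p among members 0.101), nor was this one without either KO replicate. In the other H2AZ2 transcripts no position passed, with smallest adjusted p-values of 0.0514, 0.141 and 0.0525, and H1-10 had none among 27 positions (smallest adjusted p = 0.0673). At an unadjusted p below 0.05 there were 18 of the 70 member positions and 26.2% of all.

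The H2AZ2 curves differ in where the treated coverage lies relative to the IP. On NM_201517 the mean position of the treated coverage, over nt 50 to 160, was nt 123.51 and 123.0 in the WT tables. In the KO tables it was nt 110.69 and 110.22, and each genotype was taken to have 1 profile. The mean position of the IP coverage was nt 109.06 and 117.93 in WT and 120.53 and 121.19 in KO. Treated coverage thus lay downstream of the IP coverage in WT and upstream of it in KO. Over the common span the same order held on the other 3 transcripts, which repeat much of the signal. Over all windows as deposited it did not hold on NM_201516 in the second WT table, where the mean position was nt 141.174 for treated and 152.677 for IP coverage.

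**Figure D5:**
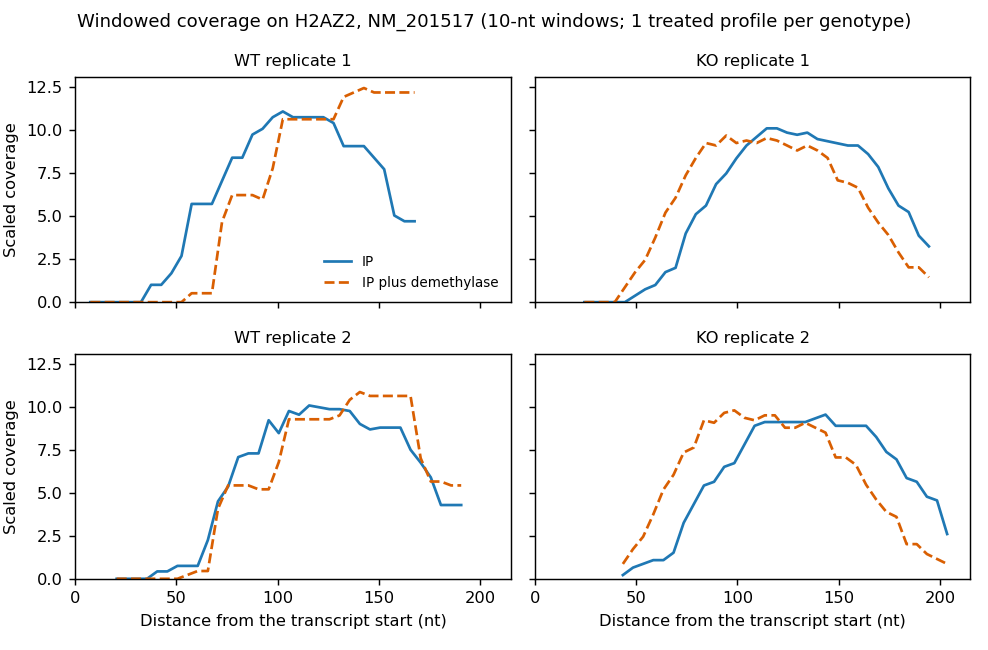
Scaled coverage of H2AZ2 (NM_201517) in 10-nt windows by distance from the transcript start, in IP (solid) and IP plus demethylase (dashed), 1 panel per table. The dashed curve of the 2 panels of a genotype is taken as 1 profile apart from its scale. It lies to the right of the solid curve in WT and to the left in KO.

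Of a list of 76 other histone genes, 12 had a peak in any list, and MACROH2A2, another macroH2A gene, was in 5 lists. In KO against WT, 1 of 6 with a region was held by KO alone, H1-4, with folds of 4.52 and 6.74, against 18.9% of all genes. None was held by WT alone, against 5.2%. In the other comparisons none was held by 1 group alone. These had 9 listed genes with a region for H2O2, 10 for Starve and 7 for UT against WT. Over all genes the H2O2-only and UT-only shares were 2.33% and 5.49%. For Starve against UT they were 5.34% and 4.06%. For UT against WT the shares over all regions were 4.02% and 1.59%.

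Of a list of chaperones and deposition factors, which carry histones to chromatin, 32 of 36 had a peak. Of these, 19 were in 5 or more lists, against 24.4% of all genes with a peak, with SET in all 10 lists. In KO against WT, 4 of 20 had a KO-only region, among them ASF1B (folds 8.82 and 7.34) and MCM2 (4.48 and 5.48), and 1 a WT-only region, SUPT16H (4.28 and 8.19). The shares over all genes were 18.9% and 5.2%, so the KO-only and WT-only counts were near the background. Against UT, 1 of 29 had an H2O2-only region (UBN1, 3.70 and 11.48) and 4 a UT-only region, among them VPS72 (9.96 and 6.66) and ANP32E (7.58 and 4.96), both of which act on H2A.Z. Over all genes these shares were 2.33% and 5.49%. Of 30, 7 had a Starve-only region, among them NAP1L4 (4.03 and 6.40), and 3 a UT-only one, against 5.34% and 4.06% of all genes. In UT against WT, 3 of 30 had a UT-only region, ANP32E, IPO4 and RBBP4, and 0 a WT-only one. Over all regions these shares were 4.02% and 1.59%. The UT-only regions of ANP32E and RBBP4 were the same against H2O2, Starve and WT. VPS72 had no UT-only region against Starve or WT.

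Genes whose calls over the 10 lists matched a member exactly were found for each of the 7. The nearest by fold was ACSL3 for H2AZ1, BRI3BP for H2AZ2, TRIM24 for H2AX, RTL8A for H3-3A, SESN2 for H3-3B, THRA for H1-10 and SLC7A2 for MACROH2A1. The mean absolute difference in log2 fold, over the lists that held both genes, was 0.11 for ACSL3, 0.66 for BRI3BP, 0.06 for TRIM24, 0.26 for RTL8A, 0.34 for SESN2, 0.82 for THRA and 1.01 for SLC7A2. A pattern of few calls was shared by many genes, 52 for H2AX and 37 for H2AZ1, and MACROH2A1 shared its pattern with 1 gene.

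The lists as a whole held median pileups from 44 to 178 and median folds from 3.62 to 8.27. Of 8 marker genes for HEK293T, 7 had a peak, and of 9 markers of other cells 1 did, COL1A1, in 2 lists. Peak lists do not measure expression, so a gene without a peak may be without reads or without enrichment, and fewer RNA molecules cannot be told apart from less m1A per molecule where only the pileup is given.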

How the data were processed

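Peak lists came from 10 IP samples, and windowed tables from the WT and KO samples. Trim Galore, HISAT and MACS2, with build hg19, are named in the submitters' processing notes. Per the file headers, each list gives the pileup (a coverage signal), the −log10 of the p-value and q-value, and the fold enrichment, a ratio, all as the authors deposited them. Per the file headers, the windowed tables give treated and IP coverage signal, which the authors scaled to about 200 per region, and a score for their difference. The sources used here do not name the input that served as control. Library depth is unknown.

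Positions are on RefSeq transcripts. Symbols came from a RefSeq gene table (GRCh38.p14, names only), matched for 17019 of 17315 transcripts. Local background was computed as (pileup + 1)/fold − 1, which gave the deposited p-value back within 0.01 log10 units for 96.2% to 100% of finite peaks per list. Peaks sharing 1 nt were merged. Windows were fitted with limma 3.58.1 in R 4.3.3 on log2(coverage + 1), with a mean coverage of at least 1, over all windows, which overlap and share reads. The planned fits took the treated coverage as 2 samples per genotype. Since it is 1 profile, it was entered once, a change made after the tables were seen, and the planned ratio of identical windows had no member among its 2508 windows. The fits were tested on simulated data. Coverage was interpolated every 10 nt and rescaled to a mean of 5.

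Members and gene lists were chosen with earlier results of these data known. Named genes were all members, the 3 genes nearest to each in calls and then fold (the first is printed), and listed genes with a group-specific region. Alternatives were other thresholds, overlaps, transcripts, list lengths, pseudocounts, filters, the replicate block and left-out replicates. One item is not reported here.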

Additional observations from a re-analysis of the deposited data

Results flagged for a closer look

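The ratio of treated over IP coverage differed between KO and WT at 1 position of H2AZ2 (NM_012412, nt 80) by the interaction term of the limma fit, in which each genotype has 1 treated profile. This is 1 of 70 member positions, against 3.82% of all 5319 positions higher in KO, and the count was 0 with the replicate block and with a pseudocount of 5. Over the span common to the 4 tables, the mean position of treated coverage relative to IP coverage also differed in sign between the genotypes on 4 H2AZ2 transcripts. KO minus WT came to -15.41 nt on NM_012412, -13.67 nt on NM_138635, -9.52 nt on NM_201516 and -20.17 nt on NM_201517. On NM_201516 the sign did not differ between all tables over the windows as deposited. The difference was not tested, its 2 values per genotype were taken to share 1 treated profile, and the transcripts share sequence.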

How the results depend on the processing

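The window counts turned on how the treated profile was counted. Entered as 2 samples, as first designed, it gave 64 member windows within KO in place of 0, and 22 interpolated positions in place of 1. Within WT it gave 0 either way. Entering 1 profile as 2 samples understates its spread, so those calls are not reported. The interpolated count was 4 with a pseudocount of 0.1, 0 with a pseudocount of 5, and 0 to 3 with an IP replicate left out. It was 0 without either KO replicate, when 0 of the 5319 positions were called. With the replicate block it was 0. Within a genotype neither a block nor a left-out replicate could be fitted, since 1 treated sample carries no replicate number and no residual degree of freedom is left.

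Among peaks with a fold of 4 or more, regions held by KO alone numbered 1 in place of 2, and by Starve alone 0 in place of 1. The 3 WT-only regions of MACROH2A1 were lost against KO and against UT, and 1 of H1-10 was called instead. A −log10 q-value of 5 or more left 0 WT-only regions in both comparisons, and 1 transcript per gene left 1. When every list was held to one length by fold, KO-only regions numbered 1 and Starve-only regions 0. Leaving out 1 list gave 2 to 3 KO-only and 3 to 3 WT-only regions, 0 to 2 H2O2-only and 0 to 1 UT-only, 1 to 11 Starve-only and 0 to 4 UT-only, and, against WT, 0 to 1 UT-only and 3 to 4 WT-only. The 11 came without the second Starve list. In all, 57 of 89 settings kept the count within 1.5 times.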
